A study of Mus musculus with 4 samples.

Results

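The miR-200 family and Mir205 are 6 miRNA genes best known from epithelia. They were taken by gene ID from a small RNA table of 2976 genes, of which 643 were miRNA genes, and all 6 had a row. The family comprises Mir200b, Mir200a and Mir429 on chromosome 4 and Mir200c and Mir141 on chromosome 6, and Mir205 lies alone on chromosome 1. The 4 libraries form 1 group, so the data give levels and no comparison between conditions. Each library was made from cells carrying Tbx18-Cre and CAG-tdTomato in CD1 mouse embryos at E10.5, which the labels also describe as wildtype. The Tbx18 promoter drives Cre, so the red reporter stays on in cells that have expressed Tbx18 and in their descendants, and the sorted cells are called stroma beside the wolffian duct, which is itself an epithelial tube. Nothing in the labels ties a library to an embryo, a litter or a pool. Spreads below therefore describe how far these 4 libraries differ, and part of that may be technical. The p-values below ask whether a ratio between genes within a library is centred on no difference. They rest on the same 4 libraries and do not measure the spread.

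As background, miR-200 miRNAs and the transcription factors Zeb1 and Zeb2 repress each other, and cells with high miR-200 keep epithelial traits while cells with high Zeb are mesenchymal. Members of the family recognise targets mainly through the seed, bases 2 to 8 of the mature strand, and the family holds 2 seeds. Mir205 is abundant in stratified and glandular epithelia and also acts on Zeb1 and Zeb2. In the embryonic kidney these miRNAs are known from duct and tubule epithelium.

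Mature sequences from RefSeq for GRCm38.p6 are shown because the comparisons below group the genes by seed, which stands in capitals. The strand shown is the one usually described as active, 3p for the miR-200 genes and 5p for Mir205; the table counts whole precursor genes and does not separate strands.
miR-200b-3p: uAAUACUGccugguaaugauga
miR-200c-3p: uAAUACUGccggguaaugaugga
miR-429-3p: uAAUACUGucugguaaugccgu
miR-200a-3p: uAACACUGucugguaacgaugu
miR-141-3p: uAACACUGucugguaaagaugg
miR-205-5p: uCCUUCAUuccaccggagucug

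The first 3 share one seed and the next 2 share another. Counting positions from 1 at the 5′ end, miR-200b-3p and miR-200a-3p differ within the seed by U4C alone. Among 1738 mature entries in the reference, the miR-200b seed occurred in 3 and the miR-200a seed in 2, all of them family members, and the miR-205-5p seed occurred once. Both miR-200 seeds therefore span both clusters. Between clusters, miR-200b-3p differed from miR-200c-3p at 2 of 22 compared bases (U11G and A22G), and miR-200a-3p from miR-141-3p at 2 of 22 (C17A and U22G). The labels and notes do not state how reads that match several places were handled, so the split of reads between such near-identical partners is uncertain.

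All 6 genes lie on the minus strand of GRCm38. Mir200b (gene ID 387243) lies on chromosome 4 at 156055681 to 156055750, Mir200a (387242) at 156054896 to 156054985 and Mir429 (723865) at 156053905 to 156053987. The 3 hairpins together span 1846 bases within the bodies of Ttll10 and the non-coding Gm13648 in GENCODE M21. Mir429 overlaps an exon of Gm13648, and the other 2 are intronic. On chromosome 6, Mir200c (723944) occupies 124718322 to 124718390, inside an intron of the antisense RNA Gm15884. Mir141 (387159) follows 336 bases downstream at 124717914 to 124717985 and overlaps an exon of Gm29008, a model marked for experimental checking. Mir205 (387201), on chromosome 1 at 193507463 to 193507530, overlaps an exon of 4631405K08Rik, named Mir205hg in RefSeq. No row of the table with RefSeq coordinates overlapped any of the 6 hairpins. This check covers listed rows only, and how reads were shared with overlapping genes outside the table is not stated.

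Working back from TPM to reads gave 146255 to 1087240 miRNA reads per library, with library 4 the shallowest. TPM is a length-scaled abundance, and it was scaled over more genes than this table holds: the listed values summed to 2.33% to 7.22% of the scaling total, lowest in library 4. Levels are therefore given in TPM and also as reads per 1000000 miRNA reads of the same library (RPM), which does not depend on genes outside the table and is not divided by hairpin length. Intervals below are exact 95% Poisson or Clopper-Pearson binomial intervals and cover counting error only.

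The family was present at moderate to low levels, and its genes were unequal. At 1 TPM or more in all 4 libraries, 5 of the 6 genes were detected, and Mir141 was not. Over all 643 miRNA genes that share was 33.1%. By mean TPM the order was Mir205, Mir200b, Mir200c, Mir200a, Mir429 and Mir141, at ranks 113, 119, 159, 190, 231 and 351 of 643. The median mean level of the 273 miRNA genes that averaged at least 1 TPM was 16.9 TPM, with Mir205 and Mir200b above it and the other members below.

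**Figure D1:**
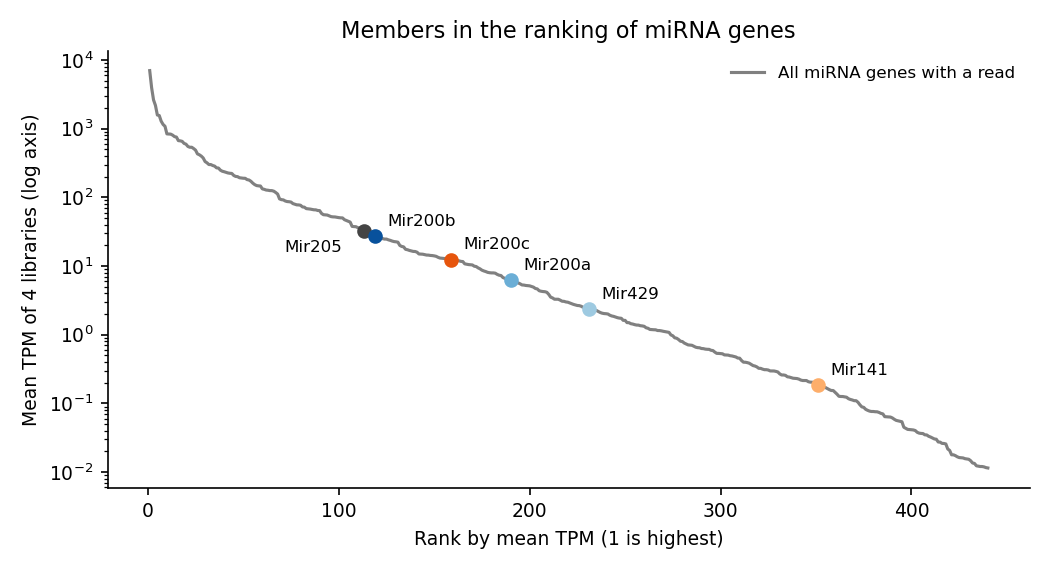
Mean TPM of 4 libraries on a log axis against rank for miRNA genes with at least 1 read (grey line), with the 6 genes as points. Mir205 and Mir200b sit at ranks 113 and 119, and Mir141 at rank 351.

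Mir200b, the most abundant gene of the family, stood at 24.4, 24.0, 44.1 and 15.9 TPM in libraries 1 to 4, from 437, 346, 592 and 120 reads. Its mean was 27.1 TPM ± 12.0 (SD, n = 4). Libraries 1 and 2 were nearly equal in TPM, library 3 was highest and library 4 lowest. As a share of miRNA reads the libraries took another order, at 495, 318, 605 and 820 RPM, with library 4 now highest and library 2 lowest. The interval for library 4 on this scale, 680 to 981, did not overlap that for library 3, 557 to 656.

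Mir200a, transcribed 695 bases downstream of Mir200b and carrying the other seed, stood at 4.48, 4.97, 11.5 and 4.12 TPM in libraries 1 to 4. Its mean was 6.26 TPM ± 3.49 (SD, n = 4). Library 3 alone was set apart, and the other 3 libraries lay within 1 TPM of each other. Its shares of 117, 84.6, 202 and 273 RPM followed the same order of libraries as those of Mir200b.

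Mir429, the last hairpin of the chromosome 4 cluster, carries the miR-200b seed and was the weakest of the 3. It stood at 1.13, 1.70, 5.40 and 1.23 TPM, from 24, 29, 86 and 11 reads. Library 3 again stood highest, and the mean of 2.37 TPM ± 2.04 (SD, n = 4) was 1.35 TPM without it. As a share of miRNA reads libraries 1 and 2 were alike, at 27.2 and 26.7 RPM, and libraries 3 and 4 were higher at 87.9 and 75.2. The interval for library 4, 37.5 to 135, spans a wide range because it rests on 11 reads.

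Mir200c, the main gene of the chromosome 6 cluster, stood at 8.90, 5.15, 25.6 and 9.95 TPM, from 157, 73, 338 and 74 reads. Its mean was 12.4 TPM ± 9.02 (SD, n = 4), or 7.997 TPM without library 3. Its shares were 178, 67.1, 346 and 506 RPM in libraries 1 to 4. The highest share was 7.54 times the lowest, against 2.58 times for Mir200b and 3.30 times for Mir429, the chromosome 4 genes with the same seed. By share, Mir200c thus varied more between libraries than either. In TPM the highest level was 4.96 times the lowest for Mir200c, 2.77 times for Mir200b and 4.78 times for Mir429. The coefficient of variation in TPM was higher for Mir429, at 86.3%, than for Mir200c, at 72.8%.

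Mir141, which shares the chromosome 6 cluster with Mir200c, was close to the limit of detection. It had 1, 5, 3 and 1 reads in libraries 1 to 4, or 0.0543, 0.338, 0.217 and 0.129 TPM. For a hairpin of its length, 72 bases, 3 reads correspond to 0.163, 0.203, 0.217 and 0.387 TPM, so only library 2 lay above that level. Differences of Mir141 between libraries were not detectable at this depth.

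Mir205 had the highest mean of the 6 genes and, in TPM, the widest relative spread among those detected. Its levels were 34.8 TPM in library 1, 10.1 in library 2, 70.7 in library 3 and 12.1 in library 4. The mean was 31.95 TPM ± 28.2 (SD, n = 4), or 19.03 TPM without library 3. Its coefficient of variation of 88.2% was above the upper quartile of 79.1% for the 273 miRNA genes that averaged at least 1 TPM, and that of Mir200b, 44.2%, was below the lower quartile of 49.9%. As a share of miRNA reads Mir205 took 686, 130, 943 and 609 RPM, so library 2 was low on both scales. In RPM its coefficient of variation was 57.4%, below the 70.2% of Mir200c and the 58.9% of Mir429. In bulk material, fewer cells of a type and less RNA per cell cannot be told apart.

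**Figure D2:**
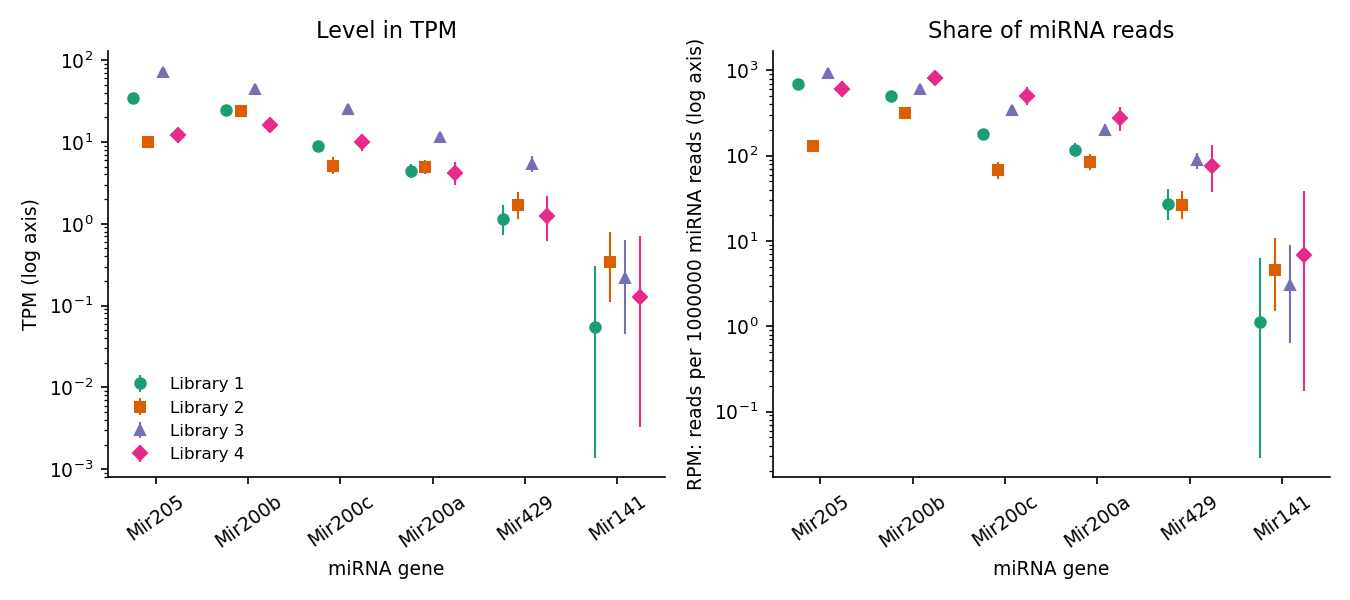
Level of each gene in each of 4 libraries, in TPM (left) and in RPM (right), both on log axes; bars are exact 95% Poisson intervals. Library 3 is highest in TPM for all genes except Mir141, while library 4 is highest by share for Mir200b, Mir200a and Mir200c.

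Neighbours in the order of mean TPM were compared within libraries. Mir205 was above Mir200b in libraries 1 and 3 and below it in libraries 2 and 4, so these 2 genes were not ordered. Mir200b was above Mir200c, Mir200a above Mir429, and Mir429 above Mir141, in 4 of 4 libraries in both TPM and reads. Mir200c was above Mir200a in TPM in 4 of 4 libraries but in reads in 3 of 4, because the Mir200a hairpin is longer, at 90 against 69 bases. In library 2 Mir200c had 73 reads and Mir200a 92.

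Library 3 gave the highest TPM of all 5 members that averaged at least 1 TPM, whereas 41.8% of the 273 miRNA genes at that level peaked there. On the share scale the peak was in library 4 for Mir200b, Mir200a and Mir200c (31.5% of the 273 genes) and in library 3 for Mir429 and Mir205 (25.3%). The lowest share of all 5 was in library 2, as for 20.5% of the 273 genes. The 5 genes are not independent of each other, and no test was made of these counts.

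The next question was how the clusters and the seeds divide the family within a library. The chromosome 4 cluster summed to 30.02, 30.7, 61.0 and 21.3 TPM in libraries 1 to 4, and the chromosome 6 cluster to 8.95, 5.48, 25.8 and 10.1 TPM. The chromosome 4 cluster was higher in every library, by a mean log2 ratio of 1.54 ± 0.57 (SD, n = 4) on the log2(TPM + 1) scale. Library 2 had the largest ratio at 2.29 and library 4 the smallest at 1.01. With the mean over genes of a cluster in place of the sum, the ratio was 0.91, since the chromosome 4 cluster has 3 genes and the other 2.

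Grouped by seed, Mir200b, Mir200c and Mir429 together stood at 34.4, 30.9, 75.1 and 27.1 TPM in libraries 1 to 4. Mir200a and Mir141 together stood at 4.53, 5.31, 11.7 and 4.25 TPM. The miR-200b seed was thus the more abundant in every library, by a mean log2 ratio of 2.505 ± 0.16 (SD, n = 4), or 1.60 with a pseudocount of 10 TPM. The per-library ratios lay between 2.34 and 2.68, a narrower range than the 1.01 to 2.29 between the clusters. The miR-200b seed has 3 genes and the other 2, and with the mean over genes in place of the sum the ratio was 1.79.

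The same pattern was seen in the reads themselves. Genes with the miR-200b seed took 85.6%, 82.2%, 83.5% and 83.3% of the family's reads in libraries 1 to 4, and all 4 intervals overlapped (82.8 to 88.1, 78.7 to 85.3, 81.3 to 85.5 and 78.1 to 87.8). The chromosome 4 cluster took 78.1%, 85.7%, 71.98% and 69.5% of the same reads. Here the interval for library 2, 82.5 to 88.5, lay above those of libraries 1, 3 and 4, which reached at most 81.1, 74.5 and 75.2. Over the 4 libraries the share by seed was 83.7% ± 1.42 and the share by cluster 76.3% ± 7.21 (SD, n = 4). Whether these 2 spreads differ was not tested.

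**Figure D3:**
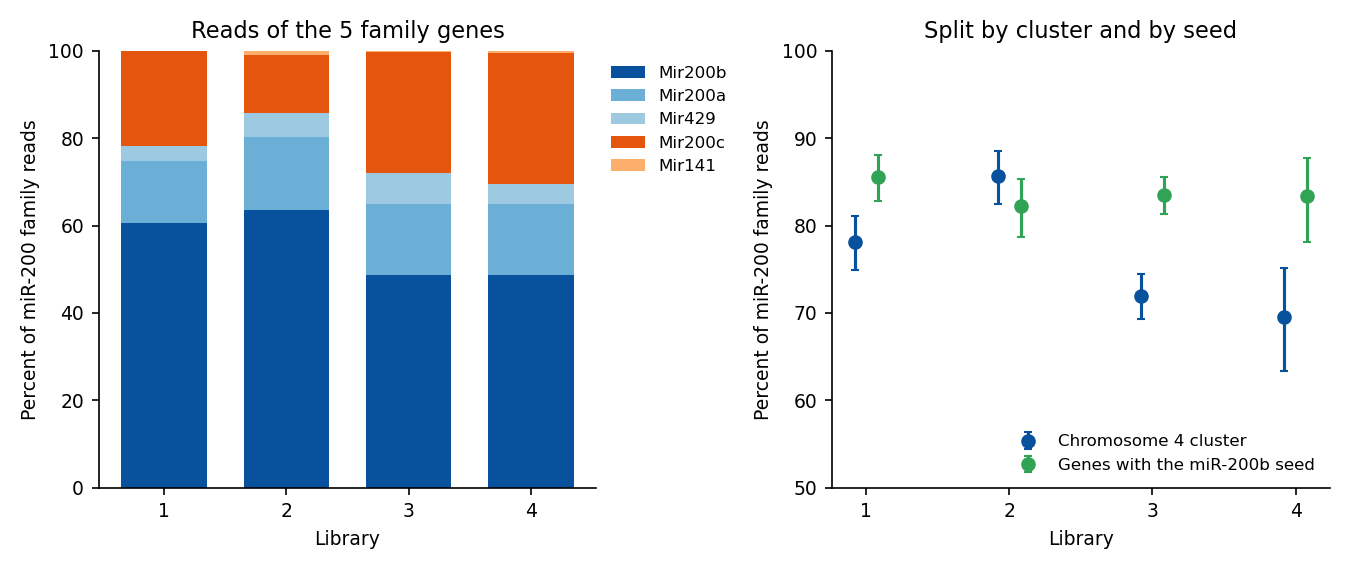
Left, percent of the reads of the 5 family genes taken by each gene in each library; right, the percent taken by the chromosome 4 cluster and by the genes with the miR-200b seed, with exact 95% binomial intervals, on an axis that starts at 50. The share by seed stays between 82.2% and 85.6%, and the share by cluster ranges from 69.5% to 85.7%.

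Mir200b and Mir200c, which have the same seed and lie in different clusters, were high in different libraries as shares of the family. Mir200b took 60.5%, 63.5%, 48.6% and 48.8% of family reads in libraries 1 to 4, and Mir200c 21.7%, 13.4%, 27.8% and 30.1%. Libraries 1 and 2 were high for Mir200b and low for Mir200c, and libraries 3 and 4 the reverse. Mir200a held nearly level at 14.3%, 16.9%, 16.3% and 16.3%. These shares sum to a fixed total with Mir429 and Mir141, so a larger share for one gene leaves less for the others.

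Within the chromosome 4 cluster Mir200b exceeded Mir200a by a mean log2 ratio of 1.96 ± 0.22 (SD, n = 4), or by 1.16 with a pseudocount of 10 TPM. In reads, Mir200b had 4.24, 3.76, 2.99 and 3.00 times as many as Mir200a in libraries 1 to 4. The first 2 libraries were again above the last 2. Mir200b exceeded Mir429 by 3.13 ± 0.34 and Mir200a exceeded Mir429 by 1.17 ± 0.16 on the log2(TPM + 1) scale (SD, n = 4), and with a pseudocount of 10 TPM these values were 1.55 and 0.39. Library 3 held the smallest excess over Mir429 for both genes, at 2.82 and 0.96.

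Within the chromosome 6 cluster the imbalance was greater in reads. On the log2(TPM + 1) scale, Mir200c over Mir141 stood at 3.23, 2.20, 4.45 and 3.28 in libraries 1 to 4. Mir200b over Mir429 stood at 3.58, 3.21, 2.82 and 2.92, so it was the larger in libraries 1 and 2 and the smaller in libraries 3 and 4. Mir141 made up 0.633%, 6.41%, 0.880% and 1.33% of the reads of the pair in libraries 1 to 4, with upper bounds of 3.48%, 14.3%, 2.55% and 7.21%. The mean log2 ratio of Mir200c to Mir141 was 3.29 ± 0.92 (SD, n = 4). Because Mir141 lay near 0, this value depended on the pseudocount, at 5.31 with 0.1 TPM and 1.06 with 10 TPM, and it was 5.71 with each library rescaled to its miRNA total. With recovered reads plus 1, not divided by length, it was 5.39. The 2 hairpins are shown because they lie 336 bases apart on the same strand and differed most in reads within a cluster. Capitals mark the 3p strand in these RefSeq sequences of GRCm38.p6, chromosome 6, minus strand.
Mir200c: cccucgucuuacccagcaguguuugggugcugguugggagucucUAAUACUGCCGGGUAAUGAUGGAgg
Mir141: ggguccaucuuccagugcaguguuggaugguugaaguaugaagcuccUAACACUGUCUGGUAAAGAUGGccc

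The family sum was next set against Mir205, which marks partly different epithelia. The 5 family genes together stood at 39.0, 36.2, 86.8 and 31.3 TPM in libraries 1 to 4. Their sum was above Mir205 in 4 of 4 libraries, by a mean log2 ratio of 0.87 ± 0.77 (SD, n = 4). This sets a sum of 5 genes against 1 gene, and the mean over genes was not tried for this ratio. Mir200b, the highest of the 5, was above Mir205 in libraries 2 and 4 and below it in libraries 1 and 3. The per-library ratios of 0.16, 1.75, 0.29 and 1.30 fell into a low pair, libraries 1 and 3, and a high pair, libraries 2 and 4. Without library 2 the mean was 0.58.

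All 8 ratios computed, including that of the Mir183 cluster given below, had the same sign in 4 of 4 libraries. Each gave p = 0.125 in a two-sided exact permutation test that flips signs, which is the lower limit for 4 libraries, and Benjamini-Hochberg adjustment over the 8 left this at 0.125. A threshold of 0.05 was out of reach for any ratio in this design.

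**Figure D4:**
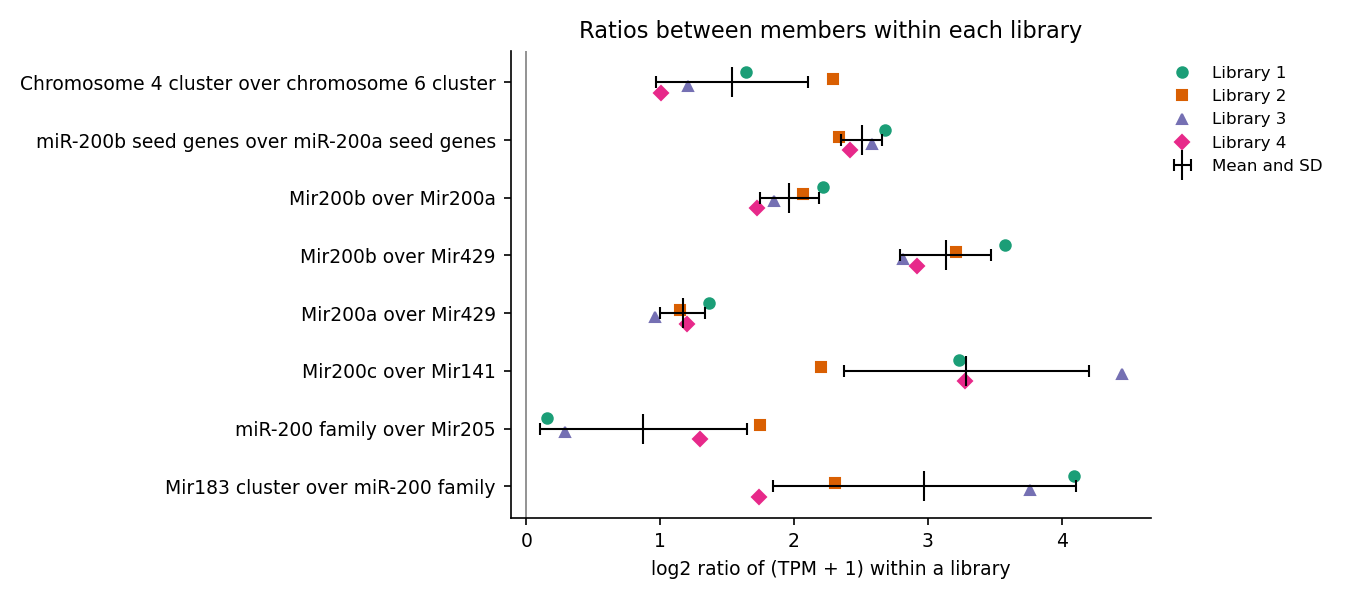
Log2 ratio of (TPM + 1) within each of 4 libraries (coloured points) for 8 pairs, with the mean and SD in black. All points lie above 0; the ratio between seeds spans 2.34 to 2.68 and that between clusters 1.01 to 2.29.

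Other cell types were followed through lists of miRNAs. Mesenchymal miRNAs, which the sorted cells should carry, were detected for 4 of 6 genes, led by Mir199a-1 at 764 TPM ± 468 and Mir143 at 593 TPM ± 365 (SD, n = 4), while Mir199a-2 and Mir214 were listed at 0. How reads that match several copies, such as Mir199a-1 and Mir199a-2, were assigned is not stated. The value of a single copy and the count of detected genes are therefore uncertain. The mesenchymal list summed to 40024, 31046, 19975 and 16526 RPM in libraries 1 to 4. The miR-200 family amounted to 2.04%, 1.61%, 6.23% and 10.2% of these mesenchymal reads, and Mir205 to 1.71%, 0.418%, 4.72% and 3.68%. Libraries 3 and 4 thus held more of both per mesenchymal read than libraries 1 and 2. The family's mean of 5.02% ± 4.02 (SD, n = 4) was 3.30% without library 4. Set against neural reads the order was another: the family amounted to 8.94%, 78.0%, 2.28% and 25.5% of them in libraries 1 to 4, and Mir205 to 7.51%, 20.2%, 1.73% and 9.24%, with library 3 lowest and library 2 highest for both.

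Among 11 other epithelial miRNAs, 8 reached 1 TPM in all libraries, and only Mir183 and Mir182 were abundant. Mir183 averaged 299.5 TPM ± 269.6 and Mir182 226 TPM ± 218 (SD, n = 4), or 184 and 132 TPM without library 3. Mir96, the other gene of their cluster, averaged 15.0 TPM ± 16.2 (SD, n = 4), or 7.34 TPM without library 3. The miRNAs of this cluster are best known from sensory organs. The Mir183 cluster exceeded the miR-200 family by a mean log2 ratio of 2.97 ± 1.13 (SD, n = 4), with 4.09, 2.30, 3.76 and 1.74 in libraries 1 to 4. Its share of 14369, 2506, 17107 and 5750 RPM was high in libraries 1 and 3. The remaining 8 genes of the list summed to 46.2, 57.9, 47.6 and 30.2 TPM in libraries 1 to 4. The mean of 45.5 TPM stood beside 48.3 for the miR-200 family, but in TPM this sum had no peak in library 3. In RPM these 8 genes summed to 998, 876, 766 and 1641, highest in library 4 as was the family sum. Their lowest share was in library 3, and that of the family in library 2. They were led by Mir192, a miRNA of gut and kidney epithelium, at 19.3 TPM ± 10.1, and by Mir375, known from endocrine cells, at 12.3 TPM ± 4.69 (SD, n = 4). Skin-associated Mir203 averaged 5.17 TPM ± 2.52 (SD, n = 4), and Mir31 and Mir215 stayed under 1 TPM in every library.

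Markers of unrelated cell types moved between libraries as well. Neural miRNAs took 9141, 643, 54609 and 6584 RPM in libraries 1 to 4, most of it Mir9-3, the only 1 of 9 genes to reach 1 TPM in all libraries. The next highest, Mir219a-2, averaged 50.2 TPM, or 6.45 without library 3. The split of reads between copies, such as Mir9-1, Mir9-2 and Mir9-3, is uncertain here too, so a low copy cannot be taken as not expressed. The mean of the whole list in TPM, 892, was 162 without library 3. In RPM, library 3 was thus highest and library 2 lowest for the neural list, as for Mir205, the Mir183 cluster and the blood list. Endothelial Mir126a took 5917, 6016, 7556 and 13490 RPM, highest in library 4 as were Mir200b, Mir200a and Mir200c. None of 7 blood miRNAs reached 1 TPM in all libraries; they summed to 187, 57.0, 283 and 219 RPM, with Mir486 and Mir223 listed at 0. Their highest members were Mir451a of red cells at 4.14 TPM, or 1.81 without library 3, and Mir155 of white cells at 3.43 TPM. The part of these cell types in the levels of the miR-200 family and Mir205 was not tested.

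**Figure D5:**
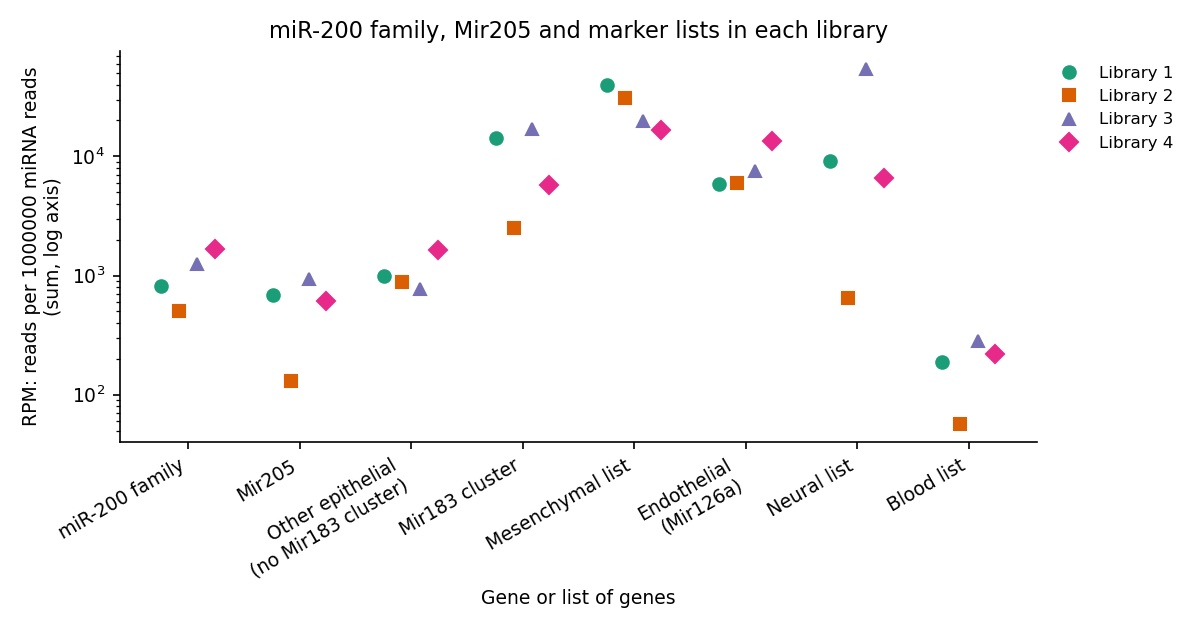
Summed RPM, on a log axis, for the miR-200 family, Mir205 and each marker list in each of 4 libraries (coloured points). Mir205, the Mir183 cluster, the neural list and the blood list are highest in library 3 and lowest in library 2, while the mesenchymal list is highest in library 1.

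Likeness of pattern over the 4 libraries was measured as the root mean square difference of log2 shares, each gene centred on its own mean, for 167 other miRNA genes that averaged at least 10 TPM. With 4 libraries this is a description only. For Mir205 the nearest genes were Mir96 at 0.33, Mir183 at 0.39 and Mir182 at 0.60 log2 units, the 3 genes of 1 cluster, against a median of 1.26 over the 167. For the family sum the nearest were Mir126a at 0.36, Mir677 at 0.38 and Mir1a-1, a striated muscle miRNA, at 0.41, against a median of 0.85. Between members, Mir200b and Mir200a differed by 0.22, Mir200a and Mir429 by 0.33, Mir200b and Mir429 by 0.50, and Mir200b and Mir200c by 0.62. The 3 distances within the chromosome 4 cluster were thus below that between Mir200b and Mir200c. Distances of Mir200a and Mir429 to Mir200c were not computed, so genes of a cluster cannot be called closer in general than genes of different clusters. Mir205 lay 0.62 from Mir200c, the same distance as between Mir200b and Mir200c, 0.77 from Mir200b and 0.71 from the family sum.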

How the data were processed

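The authors deposited TPM for 4 libraries of 1 group: gene reads over gene length, scaled to sum to 1000000 over genes that include many not listed. Per the submitters' processing notes, limma was among the tools and mm10 (GRCm38) was the build. Aligner, counter, annotation and strand use: not given in the sources used here. Per the labels' protocols, sorted cells were lysed directly and a small RNA kit was used.

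Rows were joined by gene ID to RefSeq GRCm38.p6 (2541 of 2976 matched). Multiplying TPM by RefSeq length gave whole multiples of a single value in each library for 100% of nonzero miRNA values (tolerance 0.01), taken as reads; no count model was fitted. Recovery on simulated data for 643 genes returned 100% of reads exactly. The simulation used the same lengths in both directions and always held a gene with a single read. It therefore could not test whether the smallest deposited value stands for a single read, or whether the authors used these lengths. A count of 0 allows up to 3 reads.

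Log2 ratios used a pseudocount of 1 TPM, which understates differences of low genes, and an exact sign-flip permutation test. Named genes are the 6 members, the highest 2 or 3 genes of each marker list and the 3 nearest in pattern; others are named where a value near 0 or a count refers to them, and Mir375 and Mir203 were chosen after their values were seen. Members and lists were chosen with earlier results of these data known. Alternatives covered pseudocounts of 0.1 and 10 TPM, reads, rescaling, detection thresholds and leaving out each library. For the ratios of clusters and of seeds alone they also covered means over genes or the highest gene of each side. Software was scipy 1.17.1, numpy 2.4.6, pandas 2.3.3 and matplotlib 3.10.9 under Python 3.11.15.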

Additional observations from a re-analysis of the deposited data

Results flagged for a closer look

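Dixon's ratio, the gap of an extreme library to its neighbour over the whole range, was compared with its 95% limit in 34 sets of values, made up of the members, the Mir183 cluster, their sums and their ratios, and 5 sets stood out, all in TPM and all with library 3 highest. The values were 0.884 for Mir200a, 0.867 for Mir429, 0.862 for the sum of the miR-200 family, 0.847 for the sum of the genes with the miR-200b seed and 0.858 for the sum of those with the miR-200a seed. The marker lists were not among the 34 sets; the neural list also passed the limit with library 3 highest, at 0.897 in TPM and 0.843 in RPM. The 5 sets share genes and are not independent. Chance alone sets apart about 1 in 20 groups, and of 273 miRNA genes that averaged at least 1 TPM, 28 (10.3%) passed the same limit in TPM. In RPM, none of the sets for the members passed it; Mir200a then gave 0.376 and the family sum 0.371, with library 4 highest.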

How the results depend on the processing

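The 8 ratios kept their signs in all 68 alternatives run (pseudocounts, reads, rescaling, treatment of sums, and leaving out each library), and none could pass the test in any of them. Most of this count was fixed in advance. Because every ratio had the same sign in each library, a pseudocount, rescaling or leaving out a library could change its size but not its sign. Only the use of reads and the treatment of sums could have reversed it. The treatment of sums was varied for the ratios of clusters and of seeds alone. It was not varied for the family over Mir205 or for the Mir183 cluster over the family, so their signs were not checked in that way. The ratio of Mir200c to Mir141 had the widest range, from 1.06 with a pseudocount of 10 TPM to 5.71 after rescaling to the miRNA total. Leaving out each library in turn gave 1.29 to 1.71 for the ratio of clusters, 2.45 to 2.56 for the ratio of seeds, 0.58 to 1.11 for the family over Mir205 and 2.60 to 3.39 for the Mir183 cluster over the family. The count of 5 detected members was the same at 0.1 TPM, at 3 reads in every library and without any 1 library, and was 2 at a threshold of 10 TPM. No paired analysis was possible because there is 1 group. Depth limits Mir141 in every library and Mir429 in library 4.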

Other observations

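Zeb2os, a non-coding RNA transcribed opposite Zeb2, had a row in the same table. It was listed at 0.0169, 0.0105, 0.00376 and 0.0869 TPM in libraries 1 to 4, low in all of them. Because a small RNA kit was used, these values need not follow the level of the full RNA, and nothing about Zeb2 is drawn from them. No row matched to RefSeq carried the name Mir205hg, so it was not analysed here.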
